A study of Mus musculus with 16 samples.

Results

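Late was set against early in the 6 arrays of castrated (orchidectomised) male mice that had received dihydrotestosterone (DHT), which are 6 of the 16 arrays of the study. Each mouse had been given 0.1 mg of DHT under the skin. For the 3 arrays called late this was done 12, 18 or 24 h before necropsy. For the 3 called early it was 1, 3 or 6 h. Membership followed from the labels alone: sex male, DHT given, and the hours between injection and necropsy. Every mouse in the comparison was gonadectomised (GDX) and every one received the same dose, so the groups differ by the hours since injection. The vehicle arrays, 2 of each sex, were not used here, and the 6 DHT arrays of gonadectomised females at the same times were set beside the males. Strain and age are not stated in the labels. Each time is 1 array. The protocol speaks of tissue gathered from the mice of a group, so the RNA of an array may be a pool, and nothing in the labels says how many mice it holds or that arrays came from separate animals. With late and early times as groups, the spread within a group holds change over time as well as noise between arrays, and p-values measure that spread only.

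DHT is the most potent natural androgen. It enters cells, binds the androgen receptor and moves it to the nucleus, where the receptor binds palindromic response elements that glucocorticoid, mineralocorticoid and progesterone receptors can use as well. In fat the receptor is present in adipocytes and their precursors, and androgens are known to influence lipid storage, preadipocyte differentiation and the size of visceral depots. Genes with direct receptor binding usually respond within hours, and genes that depend on newly made proteins follow later. A contrast of late with early times therefore reads genes that differ between these windows and misses any gene that has the same mean level in both.

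Retroperitoneal fat, a visceral depot on the back wall of the abdomen, was measured as total RNA on single-colour Affymetrix arrays. Values are MAS5 signals, a linear brightness summarised over the probes of a probe set, and differences are late minus early on the scale of log2(signal + 16), given with limma's standard error (± SE, 3 against 3 arrays). For each gene the probe set with the highest mean was used, and 4951 genes were tested, after those under the 40th percentile of the mean (about 175 signal units) were left out. Adipocyte transcripts were bright on all 6 arrays: adiponectin, the fat-cell hormone encoded by Adipoq, gave 21143, 31645 and 24644 early and 22078, 27695 and 27429 late. The summed signal of 14 adipocyte markers ranged from 151183 to 203672 early and from 153865 to 186989 late. Skeletal muscle markers were also present, with 29 of them summing to between 69852 and 98542 early and between 69924 and 91253 late, so the ranges overlap. A lower signal in bulk tissue can mean fewer cells of a type or less RNA per cell, and these cannot be told apart.

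Promoter sequence was available from RefSeq (assembly GRCm38.p6) for 10 of the 12 genes described as higher late and 11 of the 12 described as lower late. The 250 bases before the start are shown for Traip, the gene that passed the test, for Lrg1 and Hsd11b1, which carry the acute phase and steroid results, and for Prkaca among the lower genes. They are written 5′ to 3′ on the gene's strand, with capitals on CCAAT (or its complement ATTGG) and on CACGTG.
Traip, chr9:107950713-107950962, plus strand: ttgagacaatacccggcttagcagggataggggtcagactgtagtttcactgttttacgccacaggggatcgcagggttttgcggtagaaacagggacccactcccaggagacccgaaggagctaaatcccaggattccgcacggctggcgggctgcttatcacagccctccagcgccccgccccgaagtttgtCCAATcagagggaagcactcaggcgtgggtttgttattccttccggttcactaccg
Lrg1, chr17:56121947-56122196, minus strand: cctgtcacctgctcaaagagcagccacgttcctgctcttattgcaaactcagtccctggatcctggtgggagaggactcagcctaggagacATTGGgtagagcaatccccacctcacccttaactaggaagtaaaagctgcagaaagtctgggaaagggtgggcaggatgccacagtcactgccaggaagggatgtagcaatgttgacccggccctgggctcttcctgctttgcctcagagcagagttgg
Hsd11b1, chr1:193242361-193242610, minus strand: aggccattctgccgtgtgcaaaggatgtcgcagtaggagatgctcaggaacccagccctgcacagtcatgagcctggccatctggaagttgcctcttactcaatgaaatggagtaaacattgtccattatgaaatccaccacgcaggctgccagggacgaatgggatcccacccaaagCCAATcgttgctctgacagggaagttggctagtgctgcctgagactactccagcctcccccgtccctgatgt
Prkaca, the first of 2 listed starts, chr8:83972728-83972977, plus strand: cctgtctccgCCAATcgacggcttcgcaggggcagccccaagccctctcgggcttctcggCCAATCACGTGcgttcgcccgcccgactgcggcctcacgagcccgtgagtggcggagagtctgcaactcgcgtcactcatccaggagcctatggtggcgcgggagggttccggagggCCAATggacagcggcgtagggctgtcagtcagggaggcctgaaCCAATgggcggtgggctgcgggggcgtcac
The CCAAT match begins 56 bases before the start in Traip, 159 in Lrg1 and 72 in Hsd11b1. In Prkaca CCAAT occurs 4 times, and one copy, 190 bases before the start, lies directly beside CACGTG. Searched on both strands, CCAAT was found in 8 of the 10 higher genes (80.0%) and in 3 of the 11 lower genes (27.3%), against 40.2% of 3998 tested genes with a promoter and 33.8% of 32851 promoters in the table. The steroid receptor half-site TGTTCT was found in 0 of 10 higher genes and in 1 of 11 lower genes (Unc119), against 13.3% of tested genes. CACGTG, an E-box that clock and MYC-family proteins can bind, was found in 0 of 10 and in 2 of 11 (Brox and Prkaca), against 11.0%. None of the higher or lower genes held the full palindromic steroid response element (0.025% of tested genes), TTCNNNGAA (7.03%) or TCACNCCAC (1.4%). These are matches of letters in a short window and were not tested.

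From early to late times Traip, a ubiquitin ligase gene, rose 5.3-fold on the probe set used. Its early signals lay below the low-signal filter, which Traip passed through its late arrays. A second Traip probe set did not show the difference, and the call was lost without the 6 h or the 24 h array. The acute phase genes Lrg1 (1.79-fold) and Hp (1.52-fold) and the steroid enzyme gene Hsd11b1 (1.53-fold) were higher in all 3 late arrays, but did not pass the test. The lipid synthesis genes Acly (1.51-fold) and Gpd1 (1.46-fold) were lower in all 3 late arrays and did not pass either. Of the 4951 genes, 1 was higher late at an adjusted p under 0.05 by limma with Benjamini-Hochberg adjustment (0.0202%) and 0 were lower. Without adjustment, limma gave a p under 0.05 for 113 higher genes (2.28%) and 106 lower genes (2.14%), together 4.42%. That share does not exceed the threshold of 0.05 itself. All 3 late values lay above all 3 early values for 216 genes (4.36%) and below them for 239 genes (4.83%). Separation one way or the other takes in a share of 0.1 of the possible orders of 3 against 3 arrays. The observed shares are not above what arrays in random order would give, so separation alone does not mark a gene as changed. The median difference over all genes was 0.0011. Traip was the gene that passed. The rest of the 12 higher genes, and all 12 lower genes, are those with the smallest unadjusted p among genes whose groups did not overlap. They did not pass, and their separation was part of how they were picked.

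Traip encodes a RING-type ubiquitin ligase that works at stalled DNA replication forks and at replisomes that meet in mitosis. Its signals were 90.4, 82.9 and 75.7 early and 383, 663 and 514 late (in order of time, as for every gene that follows), so that the 3 late arrays stood far above the early ones, with the highest value at 18 h. Traip rose by 2.41 ± 0.23 (95% interval 1.89 to 2.92, 5.3-fold, limma adjusted p = 0.0117), higher in 3 of 3 late arrays. The early signals lie below the level of the low-signal filter, and Traip passed that filter through its late arrays. A second Traip probe set did not show the difference: it read 53.5, 76.1 and 101 early and 48.3, 90.8 and 94.1 late, a difference of 0.0024 at signals under the low-signal filter. The call was lost when either the 6 h array (2.35, limma adjusted p = 0.143) or the 24 h array (2.40, limma adjusted p = 0.172) was left out, or when the spread was taken from all 12 DHT arrays (limma adjusted p = 0.809). In females the same probe set read 363, 285 and 328 early and 778, 194 and 84.6 late, with the highest value at 12 h and the lowest at 24 h, and the groups overlapped. The difference between the sexes in the late-minus-early value was 2.81 (95% interval 1.22 to 4.41, limma adjusted p = 0.876). None of the 15 tested members of the cell cycle and DNA replication list passed. In that list 8 members had a positive and 7 a negative difference, around a median of 0.00015. Pcna, the sliding clamp of replication, gave 737, 688 and 736 early and 593, 594 and 575 late in males, all late values being lower. In females Pcna gave 704, 666 and 608 early and 732, 1002 and 942 late, all late values being higher.

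**Figure D1:**
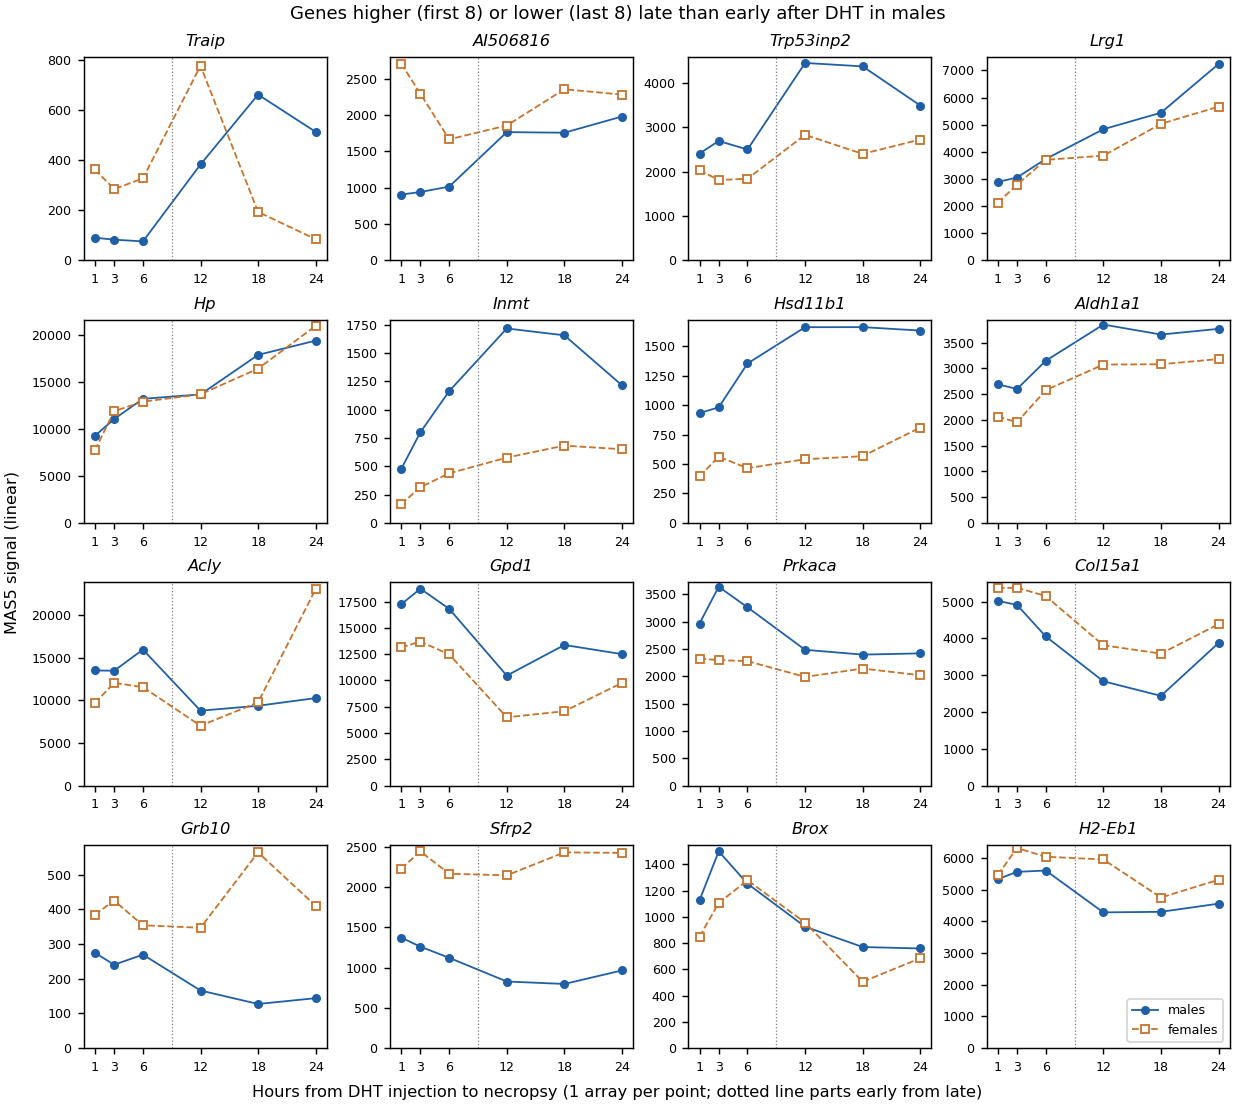
MAS5 signal (linear, from 0) against hours from DHT injection to necropsy for 16 genes, 1 array per point, males as filled circles and females as open squares; the dotted line parts early from late times. The first 8 panels show genes with all 3 late male values above the early ones and the last 8 genes with all 3 below; Traip is at 90.4 or less at 1 to 6 h and at 383 or more at 12 to 24 h in males, whereas in females it is highest at 12 h.

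The next smallest p belonged to AI506816, a transcript with no assigned role. It gave 906, 942 and 1016 early and 1766, 1758 and 1981 late. Its difference of 0.93 ± 0.11 (1.91-fold) had a limma adjusted p of 0.0521, just short of the threshold, and its other probe set, at 78.7 or less on every male array and so under the low-signal filter (mean log2 of 7.58, a signal of about 175), differed by 0.036. Females gave 2709.9, 2294 and 1667 early and 1858, 2357 and 2284 late, where the 1 h array alone lay above all late ones and the groups overlapped. Trp53inp2, which promotes autophagosome formation and transcription by nuclear hormone receptors, gave 2412, 2695 and 2503 early and 4457, 4379 and 3496 late. Its difference was 0.69 ± 0.12 (limma adjusted p = 0.639), and the female groups were also separated, at 0.48. Rab3a, a small GTPase of regulated secretion, had the largest difference after Traip among the 12, at 1.20 ± 0.27. It read 153, 223 and 207 early and 301, 632 and 514 late, and at low signal the late arrays were spread widely.

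Among acute phase proteins, 2 had a higher value at every step of time. Lrg1, a secreted leucine-rich glycoprotein that modulates transforming growth factor beta signalling, gave 2889.9, 3052 and 3737 early and 4832, 5441 and 7235 late. Each Lrg1 value was higher than the one before it, and the 24 h array was the highest. The difference was 0.84 ± 0.17 (1.79-fold, limma adjusted p = 0.697). Haptoglobin (Hp), a haemoglobin-binding plasma protein that fat also makes, followed the same order, with 9281, 11070.3 and 13226 early and 13694, 17907 and 19426 late and a difference of 0.60 ± 0.17. The female arrays repeated both orders. Female Lrg1 read 2122, 2788 and 3704 early and 3857, 5032 and 5663 late. Female Hp read 7744, 11909.5 and 12924 early and 13703, 16444 and 20997 late. In males 11 genes were higher at each step of time (0.222%) and 10 were lower at each step (0.202%), and in both sexes 2 genes were higher at each step (0.0404%), Lrg1 and Hp. Earlier results of these data had already named both. Saa3, the serum amyloid A made in mouse fat and macrophages, did not share the order: it gave 1695, 1096 and 728 early and 1312, 768 and 1100.1 late, with the highest male value at 1 h. Of 14 tested members of the acute phase list 0 passed, 2 had separated groups with late higher (14.3%, Lrg1 and Hp) and 0 with late lower. Over all genes these shares were 4.36% and 4.83%. The list median was 0.11.

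The other genes higher at each step included Igf1 and Pparg, singled out here after their values were seen. Igf1, the growth factor that fat makes under growth hormone control, gave 2505, 2825 and 3094 early and 3296, 3672 and 3804 late, a difference of 0.36 ± 0.12. Pparg, the nuclear receptor that drives adipocyte differentiation, gave 1051, 1247 and 1275 early and 1318, 1393 and 1487 late, at 0.23 ± 0.12. Neither order was present in females, where Igf1 was 4485, 3971 and 3264 early and 3083, 3104 and 4374 late. Female Pparg was 1422, 1077 and 988 early and 884, 865 and 1292 late, with its highest value at 1 h. Neither gene was called for a difference between the sexes, which was 0.51 for Igf1 (limma adjusted p = 0.894) and 0.44 for Pparg (limma adjusted p = 0.894). The remaining genes of the upward order were Cul2, Dnajc17, Gm15772, Ipo4, Nme2, Ppp1r3c and Smim20. Those of the downward order were Arap3, Ccn3, Ccr1, Cmbl, Fam83h, Maged2, Samm50, Sec31a, Slc25a25 and Zfp362.

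Enzymes that act on steroids and retinoids were among the higher genes. Hsd11b1, the reductase that regenerates active glucocorticoid inside fat cells, gave 932, 981 and 1353 early and 1660.4, 1661 and 1632 late. The 1 and 3 h arrays were the lowest, 6 h lay between, and the late arrays lay from 1632 to 1661. The difference was 0.61 ± 0.15 (1.53-fold, limma adjusted p = 0.999). Female signals were lower throughout, 395, 562 and 465 early and 540.4, 566 and 809 late, and their groups overlapped. Aldh1a1, which makes retinoic acid from retinal, gave 2692, 2599 and 3147 early and 3849.9, 3656 and 3766 late (0.42), and its female groups were separated the same way (0.51). A second Aldh1a1 probe set, at 82.3 to 146 in males, differed by 0.019, and the mean of both gave 0.22. Inmt, an N-methyltransferase of indoleamines, gave 476, 800.2 and 1163 early and 1716, 1655 and 1214 late, lowest at 1 h and highest at 12 h, a difference of 0.97 ± 0.29. Its female values showed the same separation, with 166, 316 and 438 early and 577, 682 and 650.3 late (1.11). Of 13 tested genes for steroid receptors and steroid metabolism, 1 had separated groups with late higher (7.69%, Hsd11b1) and 0 passed. With late lower there was also 1 (7.69%), the receptor co-chaperone Fkbp4 (-0.19). These shares were 4.36% and 4.83% over all genes.

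The remaining higher genes were Penk, Mthfd2, Cul2, H3c14 and Rab6a. Penk, the precursor of enkephalin peptides, gave 1205, 1163 and 1291 early and 1665, 1789 and 1639 late, but a second probe set, at 183 to 628, differed by -0.06. The third, at 10.6 to 29.5, lies far under the low-signal filter and gives no direction, and the mean of all probe sets, dim ones included, was -0.047. Mthfd2, a mitochondrial folate enzyme, gave 392, 395 and 425 early and 701, 596 and 554 late, highest at 12 h. Cul2, a scaffold of ubiquitin ligases, gave 319, 383 and 391 early and 525, 564 and 566 late. H3c14, a replication-dependent histone H3 gene with near-identical copies, gave 7812, 9445 and 7631 early and 10392, 12914 and 11655 late, and its probe set may read the copies as well. Rab6a, a GTPase of Golgi traffic, gave 983, 1134 and 1016 early and 1433, 1312 and 1554 late, and a second probe set of it differed by -0.23. Gas1, a membrane protein of growth arrest, lay outside the 12 but had separated groups in both sexes (0.41 in males and 0.62 in females).

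Enzymes that supply acetyl-CoA and glycerol for fat storage led the lower genes. Acly, which splits citrate into cytosolic acetyl-CoA, gave 13511, 13467 and 15955 early and 8784, 9359.8 and 10262 late, with 6 h the highest and 12 h the lowest. Its difference was -0.59 ± 0.12 (95% interval -0.85 to -0.33, 1.51-fold lower late, limma adjusted p = 0.697). In females Acly read 9692, 12044 and 11548 early and 7015, 9759.8 and 23055 late, the 24 h array being the highest, and the difference was 0.08. Gpd1, which makes glycerol 3-phosphate, the backbone of triglyceride, gave 17244, 18733 and 16810.2 early and 10461, 13376 and 12507 late (-0.54 ± 0.12, limma adjusted p = 0.999). The female groups for Gpd1 were also separated, with 13142, 13697 and 12480.4 early and 6490.4, 7073 and 9766 late (-0.77), and 12 h was the lowest array in both sexes. A second, dimmer Gpd1 probe set differed by -0.43 in males and -0.31 in females. Idh1, a cytosolic source of NADPH, was also lower in all 3 late male arrays (-0.26). The other fatty acid synthesis genes did not follow Acly: Fasn, the fatty acid synthase, gave 16202, 24721 and 20212 early and 17160.4, 22446 and 23921 late, and Scd1, the stearoyl-CoA desaturase, gave 28233, 52415 and 38744 early and 33200.3, 46406 and 48109 late. Both were lowest at 1 h and highest at 3 h. So were Adipoq and the 99th percentile of the signals of each male array (8417 at 1 h and 9584 at 3 h). This order is therefore not particular to Fasn and Scd1. Of 15 tested members of the fatty acid synthesis list 0 passed, 0 had separated groups with late higher and 2 with late lower (13.3%), and the median was 0.01. The shares over all genes were 4.36% with late higher and 4.83% with late lower. Of 18 tested members for triglyceride synthesis and fatty acid uptake, 2 had late higher (Agpat1 at 0.21 and the lipid droplet protein Cidec at 0.26) and 1 had late lower (Gpd1), with a median of 0.02.

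Prkaca, the catalytic subunit of protein kinase A that carries the beta-adrenergic signal to lipolysis, gave 2967, 3640.5 and 3264 early and 2486, 2398 and 2421 late. The late arrays were close to each other, and the difference was -0.43 ± 0.11 (limma adjusted p = 0.999). Female groups were separated the same way by a smaller value (-0.17), and the difference between the sexes was -0.26 (95% interval -0.58 to 0.06, limma adjusted p = 0.894). It was the 1 member of 8 tested lipolysis genes with separated groups (12.5% with late lower, against 4.83% of all genes). Hormone-sensitive lipase (Lipe) gave 9918, 12237 and 12027 early and 9328, 11654 and 12335 late, which overlap. Grb10, an adaptor that dampens insulin and IGF receptor signalling, gave 275, 240.2 and 269 early and 166, 127 and 144 late (-0.78 ± 0.19). The late signals lie below the level of the low-signal filter, and Grb10 passed that filter through its early arrays. A second probe set, at 88.3 to 297, differed by -0.92, and the third, at 45.5 or less on every male array, lies under the low-signal filter and gives no direction. Among females Grb10 was highest at 18 h, with 384, 425 and 354 early and 347, 564 and 410.0 late. In the insulin and IGF list 0 of 18 tested members passed, 1 had separated groups with late higher (5.56%, Igf1) and 2 with late lower (11.1%, Grb10 and Akt1). These shares were 4.36% and 4.83% over all genes.

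Col15a1 and Sfrp2 were also among the 12 lower genes. Col15a1, a basement membrane collagen, gave 5021, 4911 and 4053 early and 2834, 2437 and 3876 late, lowest at 18 h (-0.63 ± 0.17). Female groups were separated as well, with 5369, 5379.6 and 5149 early and 3812, 3587 and 4386 late. The basement membrane chains Col4a1 and Col4a2 had late values above the early ones in males: Col4a1 gave 6504, 7816 and 6180.4 early and 8983, 8962 and 8108 late (0.35), and Col4a2 gave 6766, 7213 and 7136 early and 8597, 8691 and 8161 late (0.27). Of 35 tested matrix genes 0 passed, 4 had late higher (11.4%: Col4a1, Col4a2, Sparc and Ogn) and 3 had late lower (8.57%: Col6a3, Col15a1 and Lum), around a median of -0.02. The shares over all genes were 4.36% higher and 4.83% lower. Sfrp2, a secreted Wnt modulator, gave 1375, 1261 and 1123 early and 828, 798 and 966 late (-0.53 ± 0.13), whereas female signals lay between 2148 and 2445 at all 6 times. Inhbb, the inhibin beta B chain, which fat cells make, gave 237, 236 and 227 early and 136, 155 and 177 late (-0.54), and its female groups were separated the same way (-0.89). Its male 12 and 18 h signals lie below the level of the low-signal filter, and Inhbb passed that filter through its early arrays. Of 14 tested genes for transforming growth factor beta and Wnt 11 had negative differences, 2 with separated groups (14.3%), and 0 passed. Over all 4951 genes 2458 had negative differences, and 4.83% had separated groups with late lower. In females the median of this list was 0.07, and 1 of its genes had separated groups with late lower. Over all genes the female median was -0.05, and 9.11% had separated groups with late lower.

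H2-Eb1, a class II antigen-presenting chain, gave 5332, 5561 and 5603 early and 4282, 4300.2 and 4557 late (-0.33 ± 0.10). Another class II chain, H2-Aa, gave 5931, 6949 and 6056 early and 5240.2, 4960.5 and 5672 late (-0.25). Of 28 tested genes for interferon response and antigen presentation 18 had negative differences, 2 with separated groups (7.14%), and 0 passed. Over all 4951 genes 2458 had negative differences, and 4.83% had separated groups with late lower. Macrophage markers, 23 measured, summed to between 31822 and 34104 early and between 29305 and 38001 late. B cell markers summed to between 6634 and 9467 early and between 6663 and 7026 late. These ranges overlap. Most of the B cell sum came from Ighm, which was lower in all 3 late arrays (5881, 7639 and 5412 early and 4674, 4924 and 5394 late). Igll1, a B cell marker near the low-signal filter, was higher in all 3 (188, 134 and 147 early and 254, 216 and 248 late). The other 2 of the 4 tested B cell markers overlapped. What part such cells had in the class II values was not tested. Brox, a protein of the nuclear envelope and endosomes, gave 1127, 1499.7 and 1253 early and 926, 771 and 759 late (-0.65 ± 0.15), highest at 3 h. The others of the 12 were Entpd6 (-0.56), a nucleoside diphosphatase, Itpk1 (-0.43), an inositol phosphate kinase, Unc119 (-0.49), a carrier of lipidated proteins, and Sec61a2 (-0.56), a subunit of the translocon. A second Entpd6 probe set, at 249 to 529, differed by -0.09 with overlapping groups, and the mean of both gave -0.32.

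**Figure D2:**
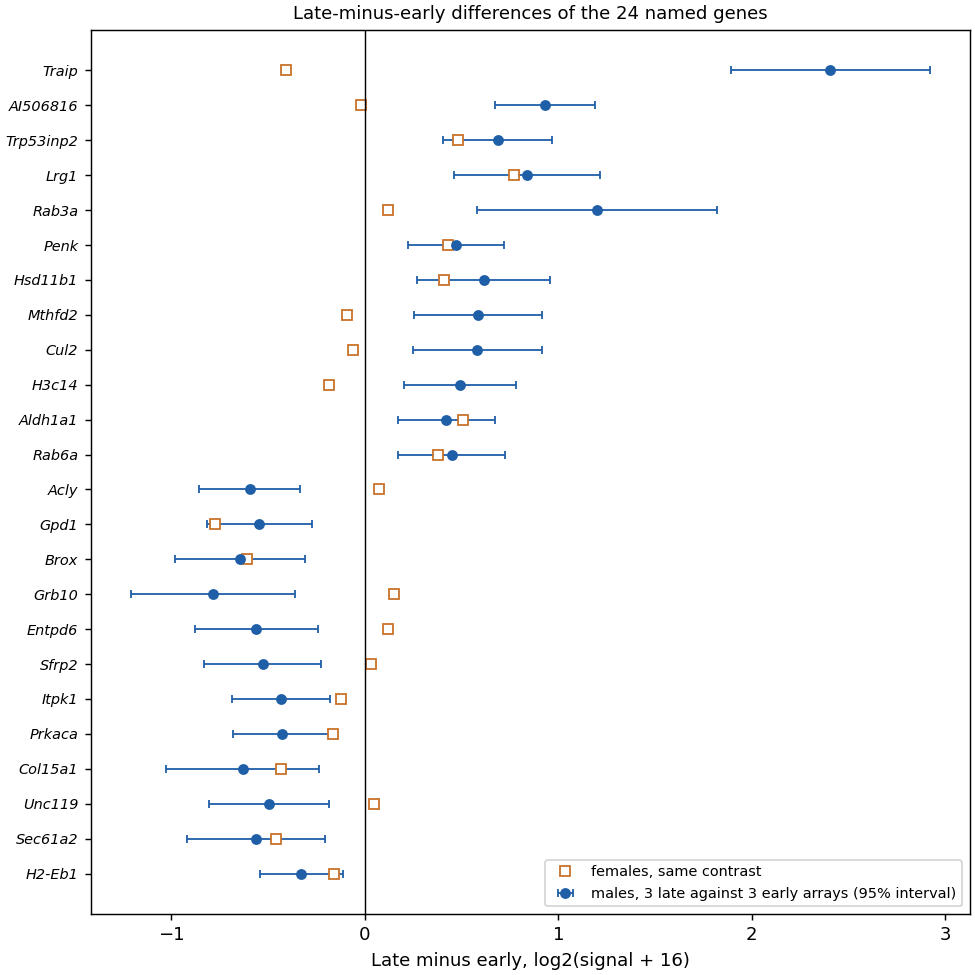
Late-minus-early difference on the log2(signal + 16) scale for the 12 higher and 12 lower genes; circles with bars are males with limma's 95% interval (3 late against 3 early arrays) and open squares are the same contrast in females. The genes were picked in males for a small p and separated groups, so male intervals that leave out 0 follow from the choice; 7 of the 12 higher and 7 of the 12 lower genes have the same sign in females.

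Fkbp5, Mt1, Mt2, Gadd45g, Cdkn1a, Cebpd and Errfi1, genes that respond to steroid hormones, had their highest male value at 6 or 12 h on the probe sets used, on either side of the line between early and late. Fkbp5, the immunophilin that feeds back on steroid receptors, gave 829, 1493 and 2318 early and 2755, 2096 and 1606 late, with the highest value at 12 h and the lowest at 1 h, so the groups overlap. Its difference was 0.56 ± 0.34 (95% interval -0.20 to 1.32), and from 0.17 (without the 1 h array) to 0.91 (without the 6 h array) with an array left out. Metallothioneins, zinc-binding proteins with hormone-responsive promoters, had a like course: Mt1 gave 1910.0, 4221 and 5513 early and 6812, 5388 and 4827 late, and Mt2 gave 2147, 4797 and 7729 early and 7629, 5617 and 4805 late. Mt1 was highest at 12 h and Mt2 at 6 h, and both were lowest at 1 h. Without the 1 h array the Mt2 difference was -0.04, against 0.45 with it, and that of Mt1 ran from 0.22 to 0.98 over the arrays left out. Gadd45g, a growth arrest gene, was highest at 6 h and lowest at 24 h, with 1087, 1645 and 1758 early and 1433, 959.6 and 656 late (-0.59 ± 0.28, from -0.87 to -0.32 with an array left out). Cdkn1a, the cell cycle inhibitor p21, also was highest at 6 h, with 550.1, 814 and 1178 early and 999, 755 and 663 late. Its difference was -0.03 ± 0.26, and a second probe set, highest at 3 h (473), gave -0.64.

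Cebpd, a transcription factor of early adipocyte differentiation, gave 1590.1, 1319 and 1771 early and 1323, 1084 and 849 late (-0.53 ± 0.18). Male Cebpd overlapped by 1 pair of values, the 3 h and 12 h arrays, and in females all late values were lower (-0.59). Errfi1, a brake on epidermal growth factor receptor signalling, gave 1604, 1406 and 1639.9 early and 1661, 1057 and 1112 late, with 18 and 24 h below the rest (-0.30 ± 0.18, from -0.51 to -0.18 with an array left out). Of the 26 tested members of the hormone response element list 0 passed. Separated groups were present for 4 with late higher (15.4%: Inmt, Igf1, Ier3 and Cryab) and for 1 with late lower (3.85%: Klf9). Over all genes these shares were 4.36% and 4.83%. The list median was -0.07. The list holds genes that respond to several steroid receptors, and it does not tell which receptor acted.

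**Figure D3:**
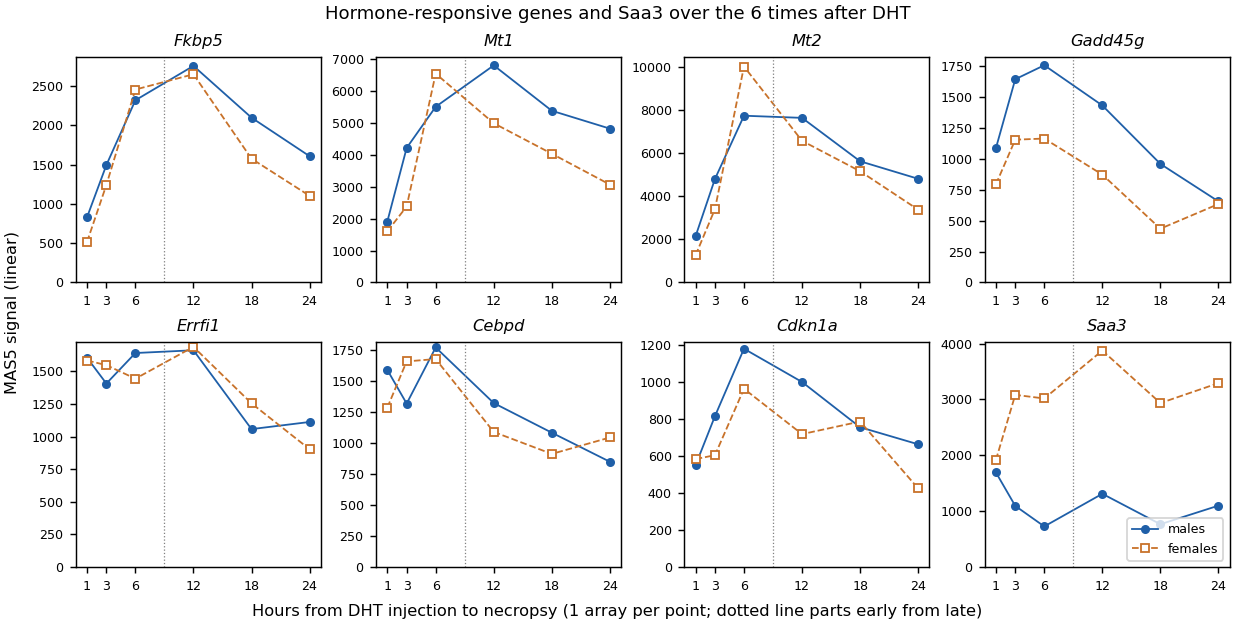
MAS5 signal (linear, from 0) against hours from DHT injection to necropsy for 7 hormone-responsive genes and Saa3, 1 array per point, males as filled circles and females as open squares. Fkbp5 is highest at 12 h in both sexes (2755 in males and 2648 in females) and Mt2 at 6 h (7729 and 10009.8), and the dotted line between early and late times cuts these courses near their highest point.

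Of 38 tested genes of oxidative phosphorylation 28 had positive differences, 5 had separated groups with late higher (13.2%), 1 with late lower (2.63%), and 0 passed, around a median of 0.05. Over all genes 2493 of 4951 differences were positive, 4.36% had separated groups with late higher and 4.83% with late lower. In females 2 genes of the list had late higher and 2 late lower, around a median of -0.09. Over all genes in females 6.22% had late higher and 9.11% late lower, around a median of -0.05. Examples of genes higher late in males are Cox6c at 0.36, Ndufa2 at 0.34 and Uqcrc2 at 0.28, subunits of complexes IV, I and III. Cox4i1, another subunit of complex IV, gave 298, 206 and 203 early and 405, 432 and 295 late, which overlap (0.65 ± 0.22, limma adjusted p = 0.999). In glycolysis 2 of 16 tested genes had late higher, the hexokinase Hk2 (0.29) and Pgk1 (0.35), and 2 had late lower, Pkm (-0.27) and Pgam1 (-0.14). Hk2 gave 1664, 1492 and 1301 early and 1971, 1802 and 1683 late in males, and in females it gave 1294, 1454 and 1547 early and 1195, 1029 and 938 late, separated the opposite way. The test of that difference between the sexes gave 0.73 (95% interval 0.31 to 1.15, limma adjusted p = 0.876). None of 18 tested fatty acid oxidation genes and none of 18 tricarboxylic acid cycle genes had separated groups in either direction. Of 14 cholesterol genes 2 had late higher (Msmo1 at 0.36 and Fdps at 0.18) and 0 had late lower, and Fdps turned to -0.30 with the mean of its probe sets. Leptin (Lep) was lowest at 6 h and highest at 12 h, with 5302, 3701 and 2667 early and 5706, 5009.6 and 4366 late. Of 20 tested genes for adipocyte differentiation and adipokines 1 had separated groups, Pparg. The labels give no clock hour for injection or necropsy. Of 13 tested clock genes 0 passed and 2 had late lower (15.4%): Cry2, a repressor of the clock, with 428, 413 and 353 early and 291, 308 and 316 late, and the kinase Csnk1d (-0.23). The nuclear receptor Nr1d1 gave 938, 1906 and 1316 early and 1093, 1553 and 1983 late, with high values at 3 and 24 h. What part the hour of the day had was not tested.

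No gene of 4951 was called for a difference between males and females in the late-minus-early value by limma with 8 residual degrees of freedom, and 222 had an unadjusted p under 0.05 (4.48%). The smallest p values with males higher were those of Bysl, Pon1, Dnajc15 and AI506816. Bysl, a ribosome assembly factor, differed by 1.23, Pon1, a plasma esterase, by 1.54, Dnajc15, a mitochondrial co-chaperone, by 0.80, and AI506816 by 0.95. With females higher they were Atp5k (-1.02) and Cops9 (-0.84), with Pcna (-0.70) and Col1a1 (-0.69), the main collagen of fibrils. The limma adjusted p of all 8 was 0.876. Of the 216 genes with all late values higher in males, 31 were so in females too (0.626% of all genes), which is 14.4% of the male list and 10.1% of the 308 in the female list (6.22% of all genes). The same held for 30 of the 239 lower genes (0.606% of all genes). They are 12.6% of the male list and 6.65% of the 451 in the female list (9.11% of all genes). Opposite separations were fewer, at 14 genes higher late in males and lower in females (6.48% of the male list) and 4 the other way round (1.67%). In females 9.11% of all genes were separated with late lower and 6.22% with late higher. Genes separated the same way in both sexes included Lrg1, Hp, Inmt, Gas1, Aldh1a1, Trp53inp2, Col4a1 and Sparc on the higher side. On the lower side they included Gpd1, Col15a1, Inhbb, Prkaca and Fkbp4. Over all genes the sign was the same in both sexes for 2715 of 4951 (54.8%). No array is shared by the sexes.

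**Figure D4:**
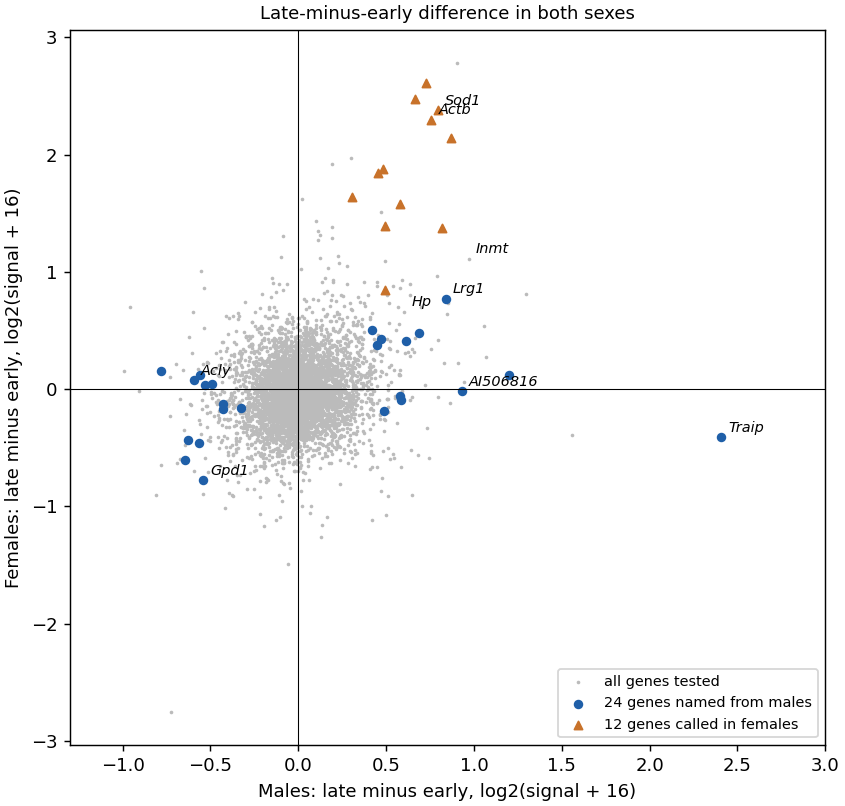
Late-minus-early difference on the log2(signal + 16) scale in males (horizontal) and females (vertical), 1 point per gene tested (4951, grey), with the 24 genes named from males in blue and the 12 genes called in females as orange triangles. Lrg1, Hp and Inmt are positive in both sexes and Gpd1 negative in both, whereas Traip is at 2.41 in males and -0.41 in females; the female calls lie between 0.31 and 0.87 in males.

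The 1 h male array stood apart in its antisense control level and in a set of genes. Antisense control probe sets, built in the opposite orientation to the ordinary ones, had a mean of 6.71 on the log2(signal + 16) scale at 1 h and of 9.28, 8.62, 8.68, 8.94 and 9.07 at 3 to 24 h (6 probe sets for actin and Gapdh). In females the 3 early arrays were at 6.75, 6.38 and 6.61 and the 3 late arrays at 8.92, 9.96 and 8.84, so there the level follows the late and early groups. Hours since injection and antisense level therefore cannot be told apart in any female late-minus-early value, those set beside the males above included. In males the low level is on 1 early array only. Sod1, the cytosolic superoxide dismutase, gave 1979, 17624 and 12235 early and 11296, 14789 and 13443 late in males, low at 1 h alone. Female Sod1 gave 2360.0, 2538 and 1971 early and 10418, 13309.7 and 12138 late, low on all 3 early arrays. Beta-actin (Actb), the structural protein of the cortex, gave 758, 4449 and 2216 early and 2379.7, 3670.0 and 4194 late in males, and 327, 698 and 332 early and 1943, 2739 and 1856 late in females. The females had 12 genes called higher (0.242%) and 0 lower, and 420 genes at an unadjusted p under 0.05 by limma (8.48%). Among those called were Sod1 and Actb. For 12 of these 12 genes the 1 h array was the lowest of the 6 male arrays, which holds for 18.5% of all genes tested, at a median of 0.235 of the median of the other 5 male arrays (range 0.131 to 0.438). None of the 12 had separated groups in males. The Actb difference in males was 0.76 ± 0.53, from 0.08 to 1.34 with an array left out. Leaving out the male 1 h array gave 1 gene called for the sex difference, Sod1 (-2.54, limma adjusted p = 0.00101).

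Traip was called without that array as well. There Traip differed by 2.46 (limma adjusted p = 0.0352), and with the antisense level as a covariate by 2.42 (limma adjusted p = 0.0335). That covariate was put in the fit of every gene, and Traip was the 1 gene called. Why some genes move with the antisense level was not tested. The 3 h array also was often at an extreme: it was the lowest of the 6 for 27% of genes and the highest for 21.3%. The 1 h array was the highest for 24.5%, and the arrays at 6 to 24 h were each the lowest for 13.2% to 14.2% and the highest for 12.7% to 14.8%. Correlations across genes between pairs of the 6 arrays ran from 0.934 (1 h with 3 h) to 0.976 (6 h with 12 h).

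**Figure D5:**
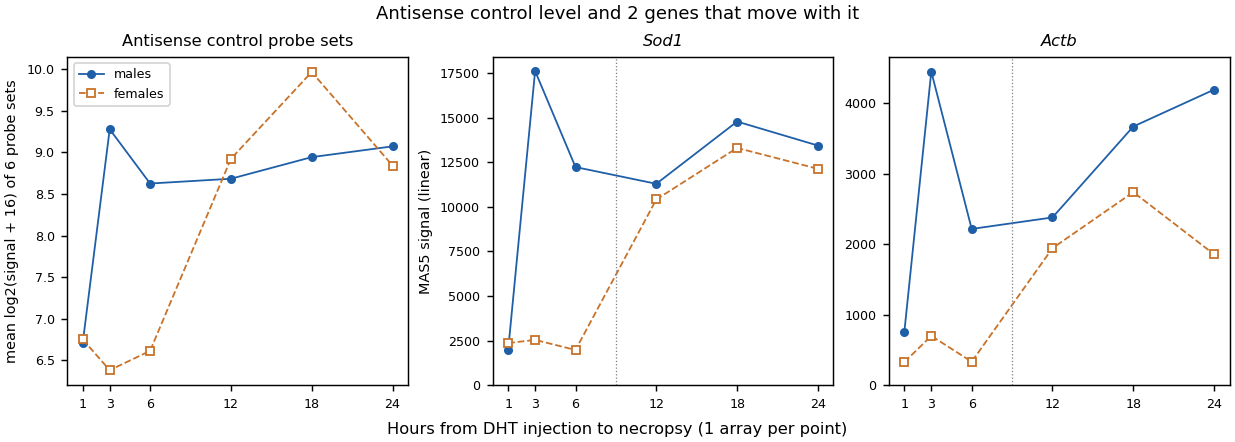
Left, mean log2(signal + 16) of 6 antisense control probe sets by hours from DHT injection to necropsy; middle and right, MAS5 signal (linear, from 0) of Sod1 and Actb, 1 array per point, males as filled circles and females as open squares. The male 1 h array and the 3 early female arrays are low in all 3 panels, with Sod1 at 2538 or less on these 4 arrays and at 10418 or more on the other 8.

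Markers of cell types, adipocytes included, were compared between the groups as sums per array. In some lists 1 gene carried most of the sum, which then says little about the other members. At 1 h Cyp2e1 gave 22761 of the liver sum of 23328, and Hba-a1 gave 16242 of the erythrocyte sum of 17367. For the 14 marker lists the highest of the 6 male arrays was between 1.10 times (endothelium) and 1.72 times (male accessory tissue) the lowest, and the ranges of early and late arrays overlapped for each of the 14. Of 25 tested skeletal muscle markers 20 had negative differences, around a median of -0.12 (-0.39 to 0.11 with an array left out), and 1 had separated groups (4%), Myh4 at -0.40. Among all 4951 genes 2458 had negative differences and 4.83% had separated groups with late lower. Kidney markers, 11 measured, summed to between 557 and 759 on every array, and none passed the filter on low signals. Smooth muscle markers included Mylk (0.48) and Acta2 (0.16) with late higher and Tagln (-0.25) with late lower. What part these cells had in the named genes was not tested.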

How the data were processed

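Signals of 12488 probe sets on 16 arrays were deposited by the authors as linear intensity values made with MAS5, per the submitters' processing notes (version: not given in the sources used here). The trimmed mean (2% at each end) of each array was 499.6 to 499.7, so levels are relative to the whole array. Male medians were 184.1 to 193.9. Precision is limited by how few arrays there are, and detection calls were not used here. Platform annotation listed 11251 probe sets, of which 10833 non-control ones had 1 symbol and 396 several (not named), and 1237 were unnamed. Entrez identifiers of 10817 matched RefSeq's table, giving 8251 genes, 2073 with several probe sets.

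limma 3.58.1 (R 4.3.3; lmFit, eBayes with trend, two-sided, Benjamini-Hochberg over 4951 genes, threshold 0.05) was fitted to log2(signal + 16), so differences of dim genes are understated. The male fit had 4 residual degrees of freedom. An exact permutation test of 3 against 3 arrays cannot go below 0.1. The code was tested on simulated data. Named were the 12 genes each way that passed or, failing that, had the smallest p with separated groups, 14 genes from earlier results, up to 4 per list and 4 each way for the sex difference; others were singled out after their values were seen. Members and the 38 lists were chosen with earlier results of these data known. Alternatives covered the pseudocount, filter, normalization, probe set choice, spread, time slope, antisense covariate, hours shared by the sexes as a block and leaving out each array.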

Additional observations from a re-analysis of the deposited data

How the results depend on the processing

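The 1 male call became 3 with a pseudocount of 64 (Traip, AI506816 and Map1s), 0 with a filter at the 60th percentile (Traip not tested there), 0 with the spread taken from the 12 DHT arrays (limma adjusted p = 0.809 for Traip) and 0 as a slope on log2 time (0.65 per doubling, limma adjusted p = 0.420). With the mean of all probe sets, where Traip was under the filter, it was 1 other gene, Map1s. Male Map1s signals were 89.3, 99.2 and 89.8 early and 304, 287 and 348 late. The early ones lie below the main low-signal filter of about 175. Map1s was not among the genes tested in the main fit, and its late arrays carried it past the filter where it was called. Leaving out each array gave 0 to 2 male calls, 1 to 500 female calls (12 with all arrays; 500 without the 24 h female array, 1 without 12 h) and 0 to 1 for the sex difference. Without the 18 h male array Sh3bp1 was called beside Traip. Male Sh3bp1 signals were 146, 165 and 191 early and 887, 188 and 833 late, low on the array left out. No filter on low signals gave 3 female calls, and eBayes without a trend 7. The sex difference had 1 call with a pseudocount of 64 (Map1s) and 2 with the mean of probe sets (Col1a1 and Map1s). That mean takes in a second Col1a1 probe set, which differed by 0.21 in males and by 2.54 in females. In males it was lowest at 1 h (2283) and at 3491 or more on the other arrays. What part the antisense level had in this call was not tested. Separated groups numbered 377 higher and 374 lower with no filter and 158 lower at the 60th percentile. With 5 arrays they ran from 378 to 536 higher and from 379 to 683 lower, as fewer arrays separate more easily; the settings without a filter and at the 60th percentile for these counts were chosen after seeing the data. Signs turned for Penk (-0.047), Fdps (-0.30) and Rps4x (0.48) with the mean of probe sets, Cdkn1a (0.066) with the slope and Saa3 (0.14) with the antisense covariate, and the cause was not tested. Over left-out arrays Cdkn1a ran from -0.30 to 0.24, Mt2 from -0.044 to 0.88 and Saa3 from -0.39 to 0.21. Of 823 other values for 70 genes and 8 sex differences 814 kept direction and side of the threshold, as did 460 of 468 with an array left out. Traip alone was past the threshold in the main fit, so for the rest this means the same sign and still not called. Most of these genes were picked for a small p or separated groups in the same arrays, so their signs were unlikely to turn. The counts are therefore no test of the values. Of 510 list medians 28 moved by more than the spread between arrays. The labels number no replicates. With the hours shared by the sexes as a block, chosen after seeing the data, 0 genes were called for the sex difference by limma and 227 had an unadjusted p under 0.05; deviations of male and female arrays of the same hour correlated at -0.0677 to 0.215 across genes. Low signals hold more background, which limits Traip early.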
